A study of Homo sapiens with 6 samples.

Results

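Aldo-keto reductases (AKR) and carbonyl reductases (CBR) are enzymes that use NADPH to turn aldehydes and ketones into alcohols, and PTGR1 reduces the double bond beside a carbonyl. The set described here held 9 genes, taken by symbol from the deposited count table: AKR1A1, AKR1B1, AKR1B10, AKR1C1, AKR1C2, AKR1C3, CBR1, CBR3 and PTGR1. They were 9 of the 19470 genes listed, and all 9 were among the 13066 genes with enough counts to be tested. The libraries came from HCCC9810, a cell line derived from a human cholangiocarcinoma (CCA), a cancer of the bile duct. The cells were labelled wild type and received either the DMSO vehicle (control) or 20 μM isolinderalactone (ILL), a plant sesquiterpene lactone, for 24 h, with 3 libraries in each group. The comparison asked how ILL altered transcript levels in CCA cells, and it rested on 1 cell line, 1 dose and 1 time point. No label says whether the 3 libraries of a group came from separate cultures, so the p-values measured the spread between these libraries, which may be technical.

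These reductases act on reactive carbonyls such as the products of lipid peroxidation, on steroids and prostaglandins, and on drugs including anthracyclines. The AKR1C enzymes are hydroxysteroid dehydrogenases encoded side by side in a gene cluster, and several members of the set are textbook target genes of the transcription factor NRF2, which pairs with small MAF proteins on antioxidant response elements (AREs).

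ILL-treated cells held more transcript of most of these reductases, and the AKR1C cluster moved furthest. AKR1C1 was 6.54-fold higher, AKR1C2 4.63-fold and AKR1C3 3.90-fold, followed by PTGR1 at 2.52-fold and CBR3 at 2.02-fold. AKR1B10, AKR1A1 and AKR1B1 rose by 1.41-fold or less, and CBR1 did not pass the test. By edgeR's quasi-likelihood test, differentially expressed genes (DEGs) were those with a Benjamini-Hochberg adjusted p under 0.05 and a change of more than 2-fold either way. 5 of the 9 members were DEGs with higher counts, against 12.5% of all genes tested, and 0 were DEGs with lower counts, against 11.4%. DESeq2 gave the same counts, 5 and 0, and all fitted changes were positive, so 0 members were lower at an unadjusted p under 0.05. At the adjusted p alone 8 members rose, against 36.2% of all genes. The control and ILL ranges did not overlap, with ILL higher, in the same 8 members, against 37.5% of all genes. The median log2 fold change of the members was 1.01, beside -0.0012 for all genes tested. The members were chosen with earlier results of these data known, so these counts and medians describe the set and are no test of it.

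**Figure D1:**
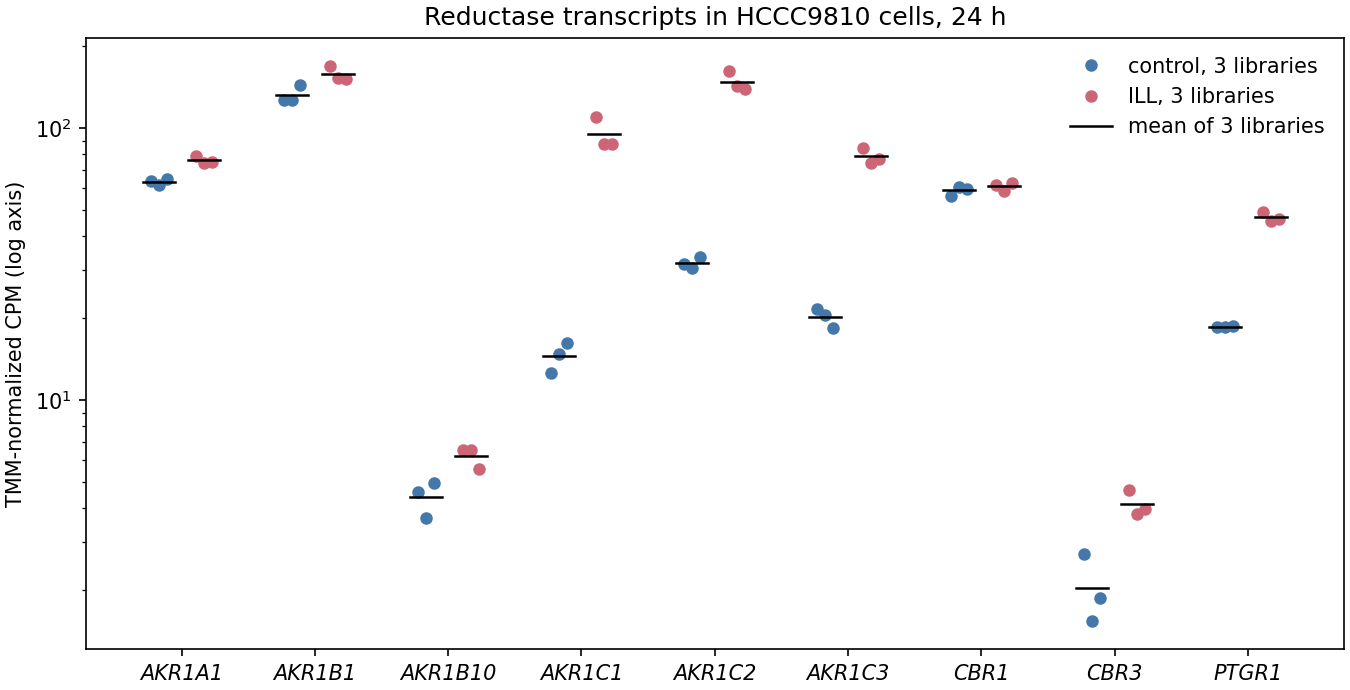
Counts scaled by TMM to a common library size (CPM, log axis) of the 9 reductase genes in each of the 3 control and 3 ILL libraries, with a bar at each group mean. The groups stood apart for every gene but CBR1, and the widest gap was that of AKR1C1, from 12.6 to 16.2 CPM in controls and from 87.1 to 109.9 CPM with ILL.

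The libraries held between 34282764 and 37758569 counts each. Of these counts the 9 genes took from 0.0348% to 0.0370% in controls and from 0.0627% to 0.0714% with ILL. The TMM scaling factors differed by group, at 1.02 to 1.03 in controls and 0.970 to 0.982 with ILL. With library size only, the log2 fold changes were 0.19 for AKR1A1, 0.19 for AKR1B1 and 0.945 for CBR3, against 0.26, 0.26 and 1.01 with TMM. The labelled cell type was checked against marker genes. KRT19, a keratin of bile duct epithelium, had 72472 to 80323 counts in controls and 61911 to 67491 with ILL. EPCAM, an epithelial adhesion molecule, had 8585 to 10036 counts in controls and 10136 to 10887 with ILL. Markers of other cell types were low. The 4 hepatocyte markers summed to at most 16.9 CPM in any library, with CYP3A4 at 0 in every library, the 4 fibroblast markers to between 9.63 and 12.2 CPM in controls and, with ILL, 13.2 CPM or more, up to 16.996, and the 3 endothelial markers to at most 1.91 CPM. The 4 leukocyte markers summed to between 36.5 and 41.6 CPM in controls and between 111 and 117 CPM with ILL. Nearly all of that was CD68, a lysosomal protein gene that epithelial lines also express, while PTPRC, which defines leukocytes, was at 0 to 1 counts in controls and 0 to 9 counts with ILL. The part of these markers in the reductase values was not tested. In bulk RNA, fewer cells expressing a gene and less RNA of it per cell cannot be told apart.

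AKR1C1, AKR1C2 and AKR1C3 lie next to each other on chromosome 10, and their near-identity bears on every value given for them. In GENCODE 29 on GRCh38, AKR1C1 (ENSG00000187134.13) spans chr10:4963253-4983283 on the plus strand, AKR1C2 (ENSG00000151632.17) chr10:4987400-5018031 on the minus strand, and AKR1C3 (ENSG00000196139.13) chr10:5035354-5107686 on the plus strand. The coding sequences of all 3 are 969 bases long without the stop codon. AKR1C1 and AKR1C2 are identical at 98.0% of coding positions, differing at 19 bases, while AKR1C3 differs from AKR1C1 at 83 bases and from AKR1C2 at 87. The following stretch, coding bases 88 to 162 counted from the A of the start codon, is shown because it gathers 10 of the 19 bases at which AKR1C1 and AKR1C2 differ. Capitals in the AKR1C1 and AKR1C2 lines mark bases that differ between those 2 genes, and capitals in the AKR1C3 line mark the 9 bases that differ from AKR1C1.
AKR1C1: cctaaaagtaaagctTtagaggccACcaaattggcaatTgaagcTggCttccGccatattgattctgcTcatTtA
AKR1C2: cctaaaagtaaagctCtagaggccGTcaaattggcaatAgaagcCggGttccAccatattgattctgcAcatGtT
AKR1C3: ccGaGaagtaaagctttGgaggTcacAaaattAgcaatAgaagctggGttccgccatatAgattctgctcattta
A read spanning this whole stretch can be told apart among the 3 genes, whereas AKR1C1 and AKR1C2 share an unbroken run of 186 coding bases, from base 784 to base 969. Of all 50-base stretches of the AKR1C1 coding sequence, 54.3% also occur in another annotated gene, and the share is 20.7% for 100-base and 4.63% for 150-base stretches. For AKR1C2 the same shares were 57.1%, 26.4% and 7.32%, and for AKR1C3 they were 23.0%, 9.77% and 2.68%. The read length, the strandedness and the way shared reads were assigned are not given in the sources used here, so the split of counts among AKR1C1, AKR1C2 and AKR1C3 is uncertain, and their sum is the firmer measure.

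**Figure D2:**
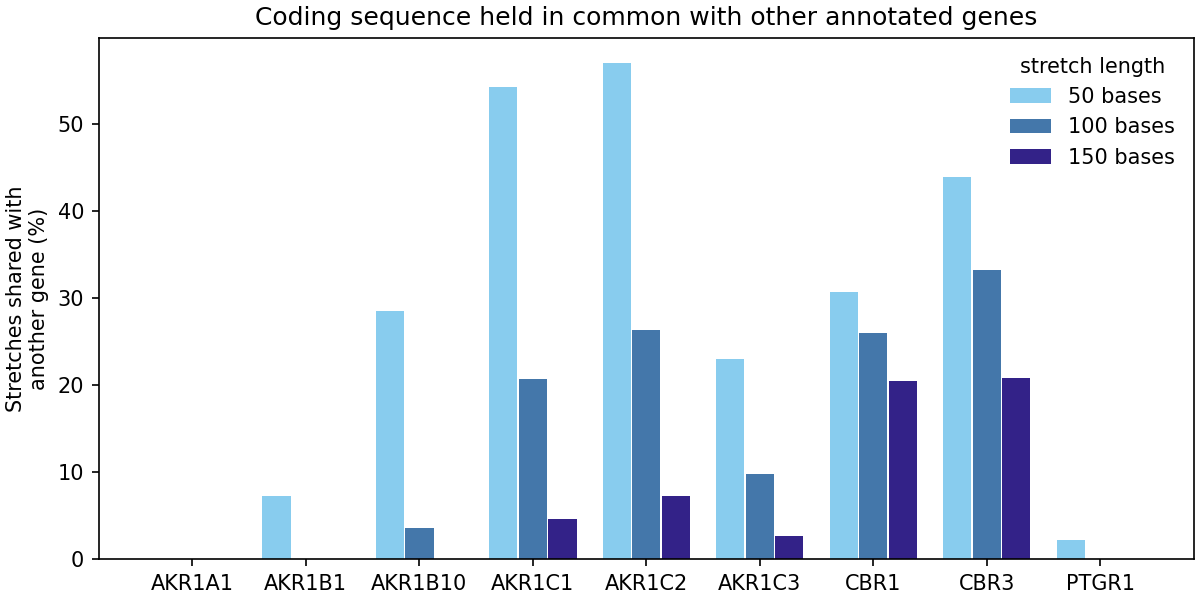
Percentage of the 50-, 100- and 150-base stretches of each gene's coding sequence (GENCODE 29) that occur in at least 1 other annotated gene. AKR1C1 and AKR1C2 share most with other AKR1C genes at 50 bases, 54.3% and 57.1%, while the shared stretches of CBR1 and CBR3 come from genes annotated on the opposite strand.

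Summed over AKR1C1 to AKR1C4, the counts were 2557, 2317 and 2409 in the control libraries and 12477, 10468 and 10618 with ILL. AKR1C4, the liver-type member of the cluster, contributed 0 counts in all 6 libraries. The lowest ILL library held over 4 times the counts of the highest control library. The sum rose by a log2 fold change of 2.27 (SE 0.062, 95% confidence interval 2.14 to 2.40), or 4.82-fold, with an adjusted p of 3.1e-20 in edgeR's quasi-likelihood test. Reads moved from one AKR1C gene to another cannot alter that value.

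AKR1C1 encodes the 20-alpha-hydroxysteroid dehydrogenase that inactivates progesterone. Its counts were 490, 519 and 572 in controls and 3848, 3015 and 3045 with ILL, which after scaling was 14.5 ± 1.79 CPM (SD, n = 3) and 94.9 ± 13.0 CPM (SD, n = 3). All ILL libraries lay far above all controls, and ILL replicate 1 stood above the other two. The log2 fold change was 2.71 (SE 0.094, 95% interval 2.52 to 2.90, edgeR adjusted p 2.8e-18), which ranked 220 of the 13066 genes tested when ordered from the highest rise. AKR1C1 was the member with the largest log2 fold change.

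AKR1C2, a 3-alpha-hydroxysteroid dehydrogenase that inactivates dihydrotestosterone and binds bile acids, gave the highest CPM of the cluster. Its counts were 1229, 1076 and 1185 in controls and 5659, 4898 and 4878 with ILL, or 31.9 ± 1.46 and 148 ± 12.1 CPM (SD, n = 3). The groups did not overlap, and the log2 fold change was 2.21 (SE 0.067, 95% interval 2.07 to 2.35, edgeR adjusted p 2.0e-19). AKR1C3, also named 17-beta-hydroxysteroid dehydrogenase type 5 and prostaglandin F synthase, had 838, 722 and 652 counts in controls and 2970, 2555 and 2695 with ILL. That was 20.2 ± 1.60 and 78.7 ± 5.49 CPM (SD, n = 3), a log2 fold change of 1.96 (SE 0.075, 95% interval 1.81 to 2.12, edgeR adjusted p 2.0e-17). Here too the ILL libraries lay above all controls.

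**Figure D3:**
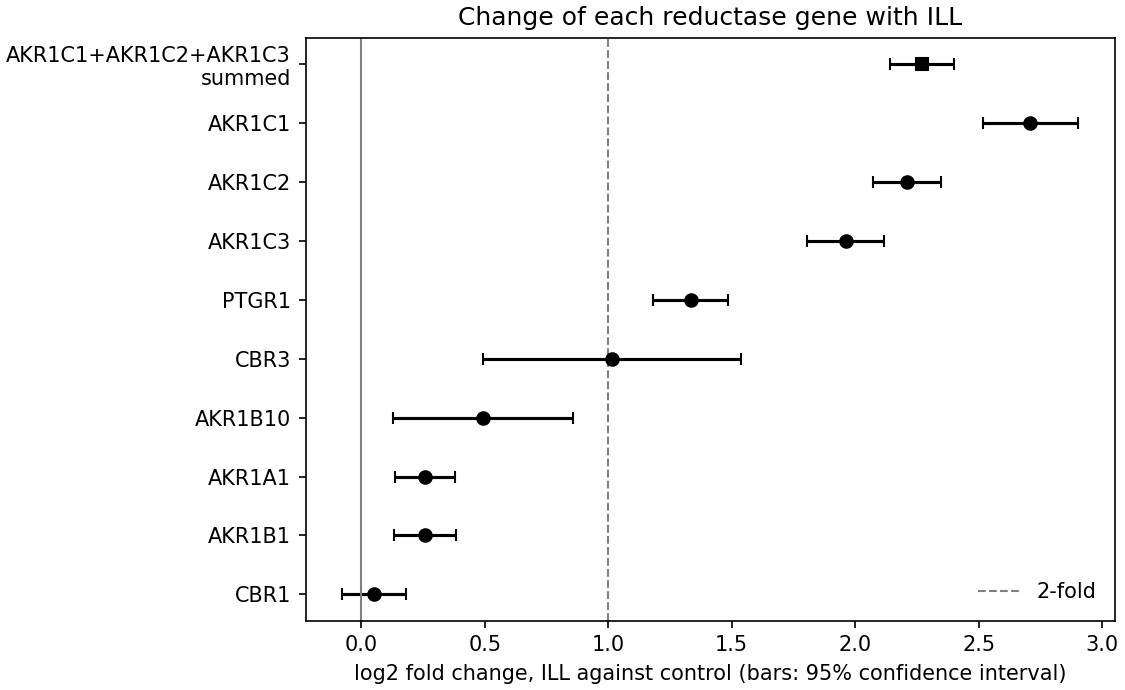
Log2 fold change of ILL against control from edgeR (points) with 95% confidence intervals (bars) for the 9 genes and for the summed AKR1C row (square); the dashed line marks a 2-fold change. The AKR1C genes and PTGR1 lay wholly above the line, the interval of CBR3 (0.49 to 1.54) crossed it, and that of CBR1 crossed 0.

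Ratios of counts within a library do not depend on how libraries are scaled, and 7 ratios between members were compared. Within the cluster, AKR1C1 made up more of the counts relative to either neighbour in every ILL library than in any control. The AKR1C1 to AKR1C2 ratio was 0.399, 0.482 and 0.483 in controls and 0.680, 0.616 and 0.624 with ILL, a shift of 0.50 on the log2 scale. The AKR1C3 to AKR1C1 ratio was 1.71, 1.39 and 1.14 in controls and 0.772, 0.847 and 0.885 with ILL, a shift of -0.74. Neither ratio overlapped between the groups, and both had the smallest p that an exact two-sided permutation test of 3 against 3 can give, 0.1 (adjusted 0.14 over the 7 ratios), so this design cannot pass 0.05. The AKR1C3 to AKR1C2 ratio did overlap, at 0.682, 0.671 and 0.550 in controls and 0.525, 0.522 and 0.552 with ILL (exact permutation p = 0.2, adjusted 0.233). Since these genes share sequence, ratios among them carry the uncertainty of read assignment.

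**Figure D4:**
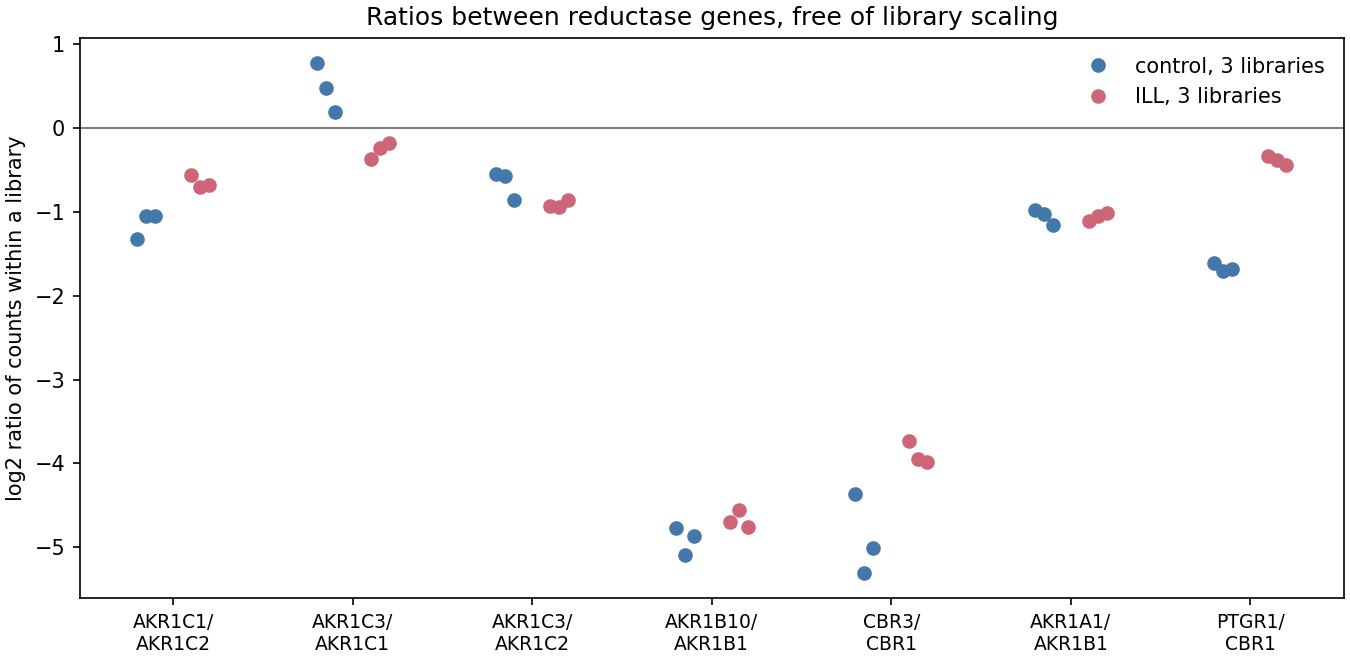
Log2 ratio of the counts of 2 reductase genes within each library (y axis) for 7 gene pairs, in 3 control and 3 ILL libraries. Control and ILL points stood apart for AKR1C1/AKR1C2, AKR1C3/AKR1C1, CBR3/CBR1 and PTGR1/CBR1, and overlapped for AKR1C3/AKR1C2 and AKR1A1/AKR1B1. For AKR1B10/AKR1B1 they did not overlap but nearly touched, with ratios of 0.0365 in control replicate 1 and 0.0368 in ILL replicate 3.

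The sequences just before the annotated RefSeq starts (GRCh38.p14) are shown for the AKR1C genes so that their likeness can be read beside the fold changes. Each run is 120 bases, read 5′ to 3′ on the gene's own strand and ending at the base before the start. Capitals mark bases that differ from AKR1C1 where the runs align, and AKR1C3 has 2 annotated starts. The windows are AKR1C1 at chr10:4963295-4963414 (plus strand), AKR1C2 at chr10:5003858-5003977 (minus strand), and AKR1C3 at chr10:5048661-5048780 and chr10:5094294-5094413 (plus strand).
AKR1C1: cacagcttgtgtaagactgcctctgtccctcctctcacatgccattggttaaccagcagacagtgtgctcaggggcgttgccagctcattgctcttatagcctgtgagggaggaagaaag
AKR1C2: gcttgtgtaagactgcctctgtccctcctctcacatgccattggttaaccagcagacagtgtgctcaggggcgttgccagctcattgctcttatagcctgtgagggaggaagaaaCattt
AKR1C3, start 1: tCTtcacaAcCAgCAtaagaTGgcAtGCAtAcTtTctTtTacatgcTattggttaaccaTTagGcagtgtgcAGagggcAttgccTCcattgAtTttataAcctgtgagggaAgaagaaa
AKR1C3, start 2: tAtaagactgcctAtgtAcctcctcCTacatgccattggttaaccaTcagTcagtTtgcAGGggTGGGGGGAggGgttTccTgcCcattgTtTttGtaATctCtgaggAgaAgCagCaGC
AKR1C1 and AKR1C2 were the closest pair in upstream sequence. Over the full 250 bases before the starts they were identical at 245 of 246 aligned bases (99.6%). Their log2 fold changes were 2.71 and 2.21, and that of AKR1C2 was closer to the 1.96 of AKR1C3 than to that of AKR1C1. The split of counts among the 3 genes is uncertain, and a link between upstream likeness and fold change was not tested. AKR1C3, at 1.96, was identical to AKR1C1 at 76.8% of aligned bases for the first start and 78.6% for the second. In GENCODE 29 all 4 windows fall inside the gene spans given above, because other annotated transcripts begin further upstream.

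Windows from 250 bases before to 50 bases after the start were available for 7 members, 9 windows in all, and were searched on both strands for the ARE core TGACNNNGC and, for comparison, for the AP-1 motif TGANTCA and the ATF4-type motif TGATGNAA. The ARE core and the AP-1 motif can overlap, since both can begin with TGA. Only CBR1 held a match, to TGACNNNGC, and no window held the other motifs. Of the 35116 RefSeq windows of the same length, 13.3% held TGACNNNGC, 7.71% TGANTCA and 3.62% TGATGNAA. The CBR1 match, read on the plus strand 159 bases before the start, is shown with 10 or more bases on either side and the match, which lies on the opposite strand, in capitals.
CBR1: tgcgggttctGCAAAGTCAggctagctggc
A count of 1 in 9 windows was near the 13.3% of all windows. CBR1 was the 1 member that did not pass the test, and a link between motif and fold change was not tested. No match says only that these letters are not in these windows, and AKR1B10 and CBR3 had no window to search.

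PTGR1, prostaglandin reductase 1, acts on keto-prostaglandins and on unsaturated lipid aldehydes. It lies at chr9:111549722-111599893 on the minus strand (ENSG00000106853.19). Its counts were 721, 653 and 663 in controls and 1720, 1562 and 1625 with ILL. The control libraries were almost equal after scaling, at 18.6 ± 0.0995 CPM (SD, n = 3), and the ILL libraries reached 47.0 ± 1.93 CPM (SD, n = 3). The groups were widely separated, with a log2 fold change of 1.33 (SE 0.073, 95% interval 1.18 to 1.49, edgeR adjusted p 2.9e-14). Only 2.24% of its 50-base coding stretches occur in another gene.

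CBR1 and CBR3 encode cytosolic carbonyl reductases that turn anthracyclines into alcohols, and CBR1 also reduces prostaglandins and quinones. CBR1 (ENSG00000159228.12) lies at chr21:36069941-36073166 and CBR3 (ENSG00000159231.5) at chr21:36134912-36146566, both on the plus strand, and their coding sequences are identical at 77.0% of bases. CBR1 was the more abundant of the pair. Its CPM was 56.5, 60.7 and 59.9 in controls and 61.7, 58.9 and 63.1 with ILL. The groups overlapped, and the log2 fold change was 0.05 (95% interval -0.08 to 0.18, edgeR adjusted p 0.461). Its sign depended on the scaling, since it was -0.02 with library size alone or on the deposited FPKM values. The interval held changes of either sign, from -0.08 to 0.18.

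CBR3 was among the least abundant members, with 106, 54 and 66 counts in controls and 163, 131 and 139 with ILL. These were 2.04 ± 0.616 and 4.15 ± 0.450 CPM (SD, n = 3). Every ILL library lay above every control, but control replicate 1 stood well above the other controls. The log2 fold change was 1.01 (SE 0.25, 95% interval 0.49 to 1.54, edgeR adjusted p 0.000939), just over the 2-fold cutoff. CBR3 passed the adjusted p in all 15 alternative settings but kept a change of more than 2-fold in only 8 of them, and leaving out control replicate 2, control replicate 3 or ILL replicate 1 gave 0.84, 0.95 and 0.92. The CBR3 to CBR1 ratio was 0.0483, 0.0253 and 0.0311 in controls and 0.0755, 0.0647 and 0.0630 with ILL, which did not overlap (log2 shift 1.005, exact permutation p = 0.1, adjusted 0.14). Both genes are overlapped by genes annotated on the opposite strand, CBR1 by SETD4 and AP000688.1 and CBR3 by CBR3-AS1. Of the 50-base stretches of the main annotated transcript, 33.4% for CBR1 occur in AP000688.1 and 35.7% for CBR3 in CBR3-AS1. Without known strandedness, reads from those stretches cannot be told apart. SETD4 overlaps CBR1 in gene span but shares no 50-base stretch with its main transcript. SETD4 was listed, with a log2 fold change of -0.19 (edgeR adjusted p 0.402). The PTGR1 to CBR1 ratio was 0.329, 0.306 and 0.313 in controls and 0.796, 0.771 and 0.737 with ILL, again without overlap (log2 shift 1.28, exact permutation p = 0.1, adjusted 0.14).

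AKR1A1 and AKR1B1 are the broadly expressed members of the set. AKR1A1, aldehyde reductase, lies at chr1:45550543-45570049 on the plus strand (ENSG00000117448.13), and its CPM was 64.1, 62.0 and 64.8 in controls and 78.9, 74.2 and 75.3 with ILL. AKR1B1, aldose reductase, is the first enzyme of the polyol pathway and lies at chr7:134442350-134459284 on the minus strand (ENSG00000085662.13). Its CPM was 126.3, 126.6 and 144.4 in controls and 169.8, 153.4 and 152.1 with ILL. Both genes rose modestly and without overlap, by a log2 fold change of 0.26 each (SE 0.059 and 0.061, edgeR adjusted p 0.000378 and 0.000545). Their ratio to each other overlapped between the groups, at 0.507, 0.490 and 0.449 in controls and 0.465, 0.484 and 0.495 with ILL (exact permutation p = 1).

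AKR1B10, an aldose reductase-like enzyme with high activity toward retinal and lipid aldehydes, lies at chr7:134527592-134541408 on the plus strand (ENSG00000198074.9). It gave 179, 130 and 175 counts in controls and 229, 225 and 196 with ILL, or 4.42 ± 0.646 and 6.23 ± 0.539 CPM (SD, n = 3). The groups did not overlap, although control replicate 3 at 4.95 CPM came close to ILL replicate 3 at 5.60 CPM. The log2 fold change was 0.49 (SE 0.18, 95% interval 0.13 to 0.86, edgeR adjusted p 0.0147). Whether it passed depended on single libraries, since without control replicate 2 it was 0.38 with an edgeR adjusted p of 0.0707. Without ILL replicate 1 or ILL replicate 2 it was 0.46, with edgeR adjusted p of 0.049 and 0.046. AKR1B15, its closest copy, had 1 to 3 counts per library, and 19.8% of the 50-base coding stretches of AKR1B10 occur in it. The sum of AKR1B10 and AKR1B15 gave 0.49 (edgeR adjusted p 0.0144). The AKR1B10 to AKR1B1 ratio was 0.0365, 0.0292 and 0.0343 in controls and 0.0385, 0.0426 and 0.0368 with ILL (log2 shift 0.24, or 0.15 without control replicate 2, exact permutation p = 0.1, adjusted 0.14).

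ILL replicate 1 gave the highest CPM of the 3 ILL libraries for 8 of the 9 members, the exception being CBR1. Without that library the log2 fold changes were 2.59 for AKR1C1, 2.14 for AKR1C2, 1.91 for AKR1C3, 1.30 for PTGR1 and 0.46 for AKR1B10, and 4 members remained DEGs, CBR3 falling under the fold cutoff as given above.

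To set the genes beside each other, levels were compared per length on the deposited FPKM values (fragments per kilobase of gene length, scaled to library size). In controls AKR1B1 was highest at 91.3 ± 6.70 FPKM (SD, n = 3), then AKR1A1 at 41.2 ± 0.890 and CBR1 at 32.9 ± 1.16. AKR1C3 (10.7 ± 0.901), PTGR1 (8.98 ± 0.0141), AKR1C2 (8.24 ± 0.349) and AKR1C1 (4.61 ± 0.548) followed, with AKR1B10 (1.71 ± 0.247) and CBR3 (1.47 ± 0.447) at the bottom. Neighbours in that order had separate ranges, except AKR1B10 and CBR3, whose ranges overlapped. With ILL, AKR1B1 (104 ± 7.04) and AKR1A1 (47.0 ± 1.81) stayed on top, and AKR1C3 (39.9 ± 3.02 FPKM) and AKR1C2 (36.4 ± 3.16) came above CBR1 (32.5 ± 1.28). AKR1C1 reached 28.7 ± 4.11 FPKM, PTGR1 21.6 ± 1.02, CBR3 2.83 ± 0.324 and AKR1B10 2.30 ± 0.200. The ranges of AKR1C3 and AKR1C2 overlapped, as did those of CBR1 and AKR1C1, so their order with ILL was within the spread between libraries. The FPKM order also rests on the gene lengths used by the authors, which the ratio of counts to FPKM put at 1927 bases for AKR1C3, 3227 for AKR1C1 and 3966 for AKR1C2.

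The summed FPKM of the 9 genes was 197, 196 and 209.7 in controls and 339, 301 and 306 with ILL. The AKR1C genes made up most of the difference, with 23.7, 23.5 and 23.5 in controls and 116.7, 98.5 and 99.7 with ILL, while the other 6 genes summed to 173, 173 and 186 in controls and 223, 202 and 206 with ILL. The AKR1C share of the summed FPKM was 11.7% ± 0.475 (SD, n = 3) in controls and 33.2% ± 0.999 (SD, n = 3) with ILL. AKR1B1 held 45.4% ± 1.62 in controls and 33.0% ± 0.306 with ILL. These shares rest on the authors' gene lengths, since on counts the AKR1C genes took 47.6% and AKR1B1 23.5% with ILL, and 19.2% and 38.1% in controls. No share was tested.

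**Figure D5:**
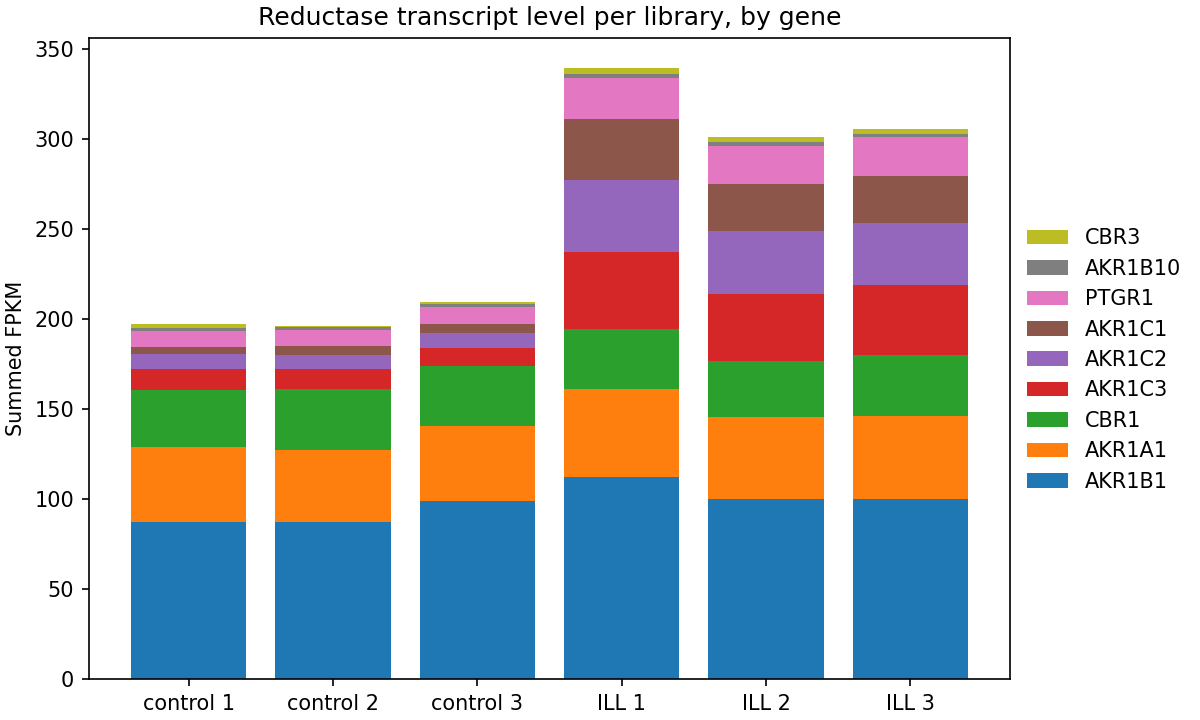
Deposited FPKM of the 9 reductase genes stacked for each of the 6 libraries. The stack was 196 to 209.7 FPKM in controls and 301 to 339 with ILL, and the AKR1C segments grew from 23.5 to 23.7 FPKM in controls to 98.5 to 116.7 with ILL.

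Among the other listed members of the AKR superfamily, which include the KCNAB channel subunits, few could be tested. Of 12 listed, 9 were in the table and 4 were tested, of which KCNAB3 and AKR7A3 averaged under 1 CPM, with 0 DEGs higher and 1 lower, 2 that fell at the adjusted p alone and a median log2 fold change of -0.32. Over all genes tested, 12.5% were DEGs higher, 11.4% were DEGs lower and 36.9% fell at the adjusted p alone. With 4 genes tested, counts in either direction say little about the family. AKR7A2, aflatoxin aldehyde reductase, and AKR7A3, its close relative, were the members that fell, and they were named after their values were seen. AKR7A2 had 88.2, 88.4 and 83.2 CPM in controls and 64.2, 64.0 and 58.4 CPM with ILL (log2 fold change -0.48, edgeR adjusted p 1.5e-07). AKR7A3, with at most 21 counts in a library, gave -1.44 (edgeR adjusted p 0.0478), which did not hold under most alternatives.

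A list of other carbonyl, enone and quinone reductases, which includes CBR4, held genes that rose and genes that fell. Of 25 tested, 9 rose, 12 fell and 4 did not pass the test, with 2 DEGs higher, 1 lower and a median log2 fold change of -0.30. Over all genes tested, 36.2% rose and 36.9% fell, and 12.5% and 11.4% were DEGs higher and lower, so the counts that rose were near the background. DHRS3, which reduces retinal to retinol, went from 35.8 to 95.9 CPM (log2 fold change 1.42, edgeR adjusted p 1.3e-15). VAT1, a quinone oxidoreductase-like protein, went from 168 to 390 CPM (log2 fold change 1.22, edgeR adjusted p 4.1e-16). DHRS11, a ketosteroid reductase, went from 38.9 to 16.4 CPM (log2 fold change -1.24, edgeR adjusted p 2.9e-13). NQO1, the quinone reductase often read as an NRF2 marker and named here after its values were seen, rose from 370 to 711 CPM, a log2 fold change of 0.94 (edgeR adjusted p 1.9e-14), below the fold cutoff.

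Aldehyde and alcohol dehydrogenases handle the same carbonyls by oxidation, or interconvert them with alcohols. Of 26 listed, 19 were tested, 12 rose, 6 fell and 1 did not pass, with 4 DEGs higher, 0 lower (also 0 in DESeq2) and a median log2 fold change of 0.65. Against these stand 36.2% of all genes that rose, 36.9% that fell, 12.5% DEGs higher and 11.4% lower. ALDH1L2, the mitochondrial 10-formyltetrahydrofolate dehydrogenase, had 9.22, 9.65 and 7.58 CPM in controls and 111.7, 107.0 and 111.1 CPM with ILL. Its log2 fold change of 3.64 (SE 0.080, edgeR adjusted p 6.3e-22) exceeded that of every member. Its role is in folate metabolism rather than in detoxifying aldehydes. ALDH3B2 went from 0.506 to 3.06 CPM (log2 fold change 2.57, edgeR adjusted p 5.5e-06), at low counts.

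Of the 8 genes for NRF2, its relatives, partners and regulators, 6 rose, 0 fell and 2 did not pass the test, with 4 DEGs higher and a median log2 fold change of 0.95, beside 36.2% of all genes that rose, 36.9% that fell and 12.5% that were DEGs higher. The DEGs numbered 3 with library size only, without ILL replicate 1 or without ILL replicate 2. MAFK, a small MAF protein, went from 38.6 to 121 CPM (log2 fold change 1.65, edgeR adjusted p 9.9e-18), and MAFG from 44.4 to 110.3 CPM (1.31, edgeR adjusted p 3.7e-16). NFE2L2, which encodes NRF2 and is named after its values were seen, rose from 147 to 269 CPM (log2 fold change 0.88, edgeR adjusted p 9.9e-14). BACH1, which encodes a repressor at the same elements and was also named after its values were seen, rose from 21.7 to 43.9 CPM (log2 fold change 1.02, edgeR adjusted p 1.8e-11). KEAP1, the adaptor that targets NRF2 for degradation, also chosen after its values were seen, had 80.4 CPM in controls and 88.2 CPM with ILL and did not pass the test (edgeR adjusted p 0.0593). Protein levels and the activity of these factors were not measured in these libraries.

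Genes within 500 kb of the members were counted, a list built after values were seen. Around the AKR1C cluster 3 other genes were tested, of which 1 rose at the adjusted p and 0 were DEGs. Around PTGR1 there were 4 tested, of which 2 rose at the adjusted p and 0 were DEGs. Around AKR1A1 there were 14 tested, of which 2 rose and 7 fell at the adjusted p, with 0 DEGs higher and 5 lower. The AKR1B and CBR loci each had 5 other tested genes, of which 2 rose and 2 fell at the adjusted p, with 1 DEG higher and 1 lower. Over all genes these shares were 36.2% and 36.9% at the adjusted p and 12.5% and 11.4% for DEGs.

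The genes whose pattern over the 6 libraries was most like that of AKR1C1 were TNFSF13 (Pearson r = 0.9998 on log2 CPM), CHMP4C (0.9995) and AVL9 (0.9995), among 12038 genes with a mean of at least 1 CPM. Since 2623 of those genes had r above 0.95, the ranking carries little beyond the difference between the 2 groups. In all 3 genes, as in AKR1C1, ILL replicate 1 was highest and control replicate 1 lowest, with log2 fold changes of 0.41 for TNFSF13, 1.08 for CHMP4C and 0.80 for AVL9.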

How the data were processed

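RNA-seq was analysed for 6 HCCC9810 libraries, 3 control and 3 ILL, grouped by their labels. Unnormalized counts of reads for each gene symbol were deposited, with a second table holding FPKM values from the authors; the submitters' processing notes name GRCh38 and DESeq2, and the aligner, counter and annotation are not given in the sources used here. Counts were filtered with filterByExpr, scaled by TMM and tested over the whole table with edgeR 4.0.16 (glmQLFit, glmQLFTest; R 4.3.3), with Benjamini-Hochberg adjustment over 13066 genes. The scripts were tested on simulated data. AKR1C1 to AKR1C4, and AKR1B10 with AKR1B15, were also tested as summed rows. Ratios of counts were compared by exact permutation tests. The deposited FPKM values were used for levels per length and, on the log2 scale with a pseudocount of 1 or 0.1, in limma 3.58.1. DESeq2 1.42.0 was an alternative. Gene positions and coding sequences came from GENCODE 29, promoter windows from RefSeq GRCh38.p14, and alignments from Biopython 1.88.

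The members and gene lists were chosen with earlier results of these data known. Named genes were all 9 members, of each other list at most 2 DEGs at each end of the log2 fold change averaging 1 CPM or more, and the 3 genes most correlated with the member that changed most. Genes named outside this rule are given as chosen after their values were seen. Precision was set by 3 libraries per group and between 34282764 and 37758569 counts per library. The common dispersion gave a biological coefficient of variation (BCV) of 0.0717. 1 gene of the epithelial marker list is not reported here.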

Additional observations from a re-analysis of the deposited data

How the results depend on the processing

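Of 135 values of single members under 15 alternatives, 129 had the same sign and passed or failed the test as before. CBR1 was -0.017 with library size only and in all limma fits on FPKM. AKR1B1 no longer passed in limma on FPKM plus 1 without a filter (0.19, adjusted p 0.057), nor did AKR1B10 without control replicate 2. The AKR1C sum stayed between 2.19 and 2.31 in 12 alternatives, and the sum of AKR1B10 and AKR1B15 lay between 0.375 and 0.579 when libraries were left out, failing without control replicate 2 (adjusted p 0.0708). Members called as DEGs higher numbered 4 to 5, or 8 with no fold cutoff, and leaving out a library gave 4 to 5. With no fold cutoff the other lists gave 2 lower aldo-keto reductases, 9 higher and 12 lower other reductases, and 12 higher and 6 lower dehydrogenases. The 1 lower aldo-keto reductase, AKR7A3, became 0 with no filter, with at least 10 counts in every library, in DESeq2, under the replicate block and in every fit without 1 library (0 to 0). Other reductases called lower were 3 with library size only, 2 without a filter and 1 to 2 without 1 library. The AKR1A1 to AKR1B1 log2 ratio, -0.00069, ranged from -0.0508 to 0.0371 without 1 library, being positive without control replicate 1 (0.0371), control replicate 2 (0.0116) or ILL replicate 1 (0.0239). Taken on counts, the AKR1C share of the members was 19.2% in controls and 47.6% with ILL. The causes were not tested. DEGs over all genes numbered 1635 higher and 1485 lower, against 668 and 923 in limma on FPKM plus 1 and 909 and 1247 with a pseudocount of 0.1.

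Libraries of the 2 groups share replicate numbers, but same-numbered libraries did not deviate together (r = 0.0067, -0.020 and -0.060 over genes), so the numbers were not taken as pairs. With the replicate block, AKR1C1 was 2.70, CBR3 1.04 and AKR1B10 0.50, 5 members were DEGs higher, 2 other reductases were called lower and 0 other aldo-keto reductases, and DEGs over all genes were 1627 higher and 1484 lower.

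Depth limits CBR3 and AKR1B10, which held 54 to 163 and 130 to 229 counts per library.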
